A study of Mus musculus with 8 samples.

Results

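The 10 genes described here set up or carry out the brown adipocyte programme, and were followed in brown adipose tissue of mice lacking Ogt in brown adipocytes. They were chosen by name: the regulators Prdm16, Ebf2, Zic1, Lhx8, Irf4 and Tbx15, and the effectors Cidea, Dio2, Elovl3 and Kcnk3. All 10 were found among the 54532 genes of the deposited table, and all 10 had a mean of at least 0.5 FPKM (fragments of a gene divided by its length and by a depth denominator of each library) over the 8 libraries, the level needed to enter the test. Tissue of mice in which Ogt was knocked out in brown adipocytes (OGTBKO, 4 libraries) was compared with wild-type tissue (WT, 4 libraries). Ogt encodes the transferase that places O-linked N-acetylglucosamine on proteins inside the cell. For both groups the labels give the same housing at 23 °C on standard chow, the same induction after 8 weeks with an agent spelled "gomaxifen", and tissue collection 2 months later with the surrounding white fat removed. The driver of the knockout, the sex of the mice and whether tissue was pooled are not stated by the labels, and since no label says outright that each library came from a separate animal, p-values measure the spread between these libraries, which may be technical.

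Brown adipocytes burn lipid for heat, and their identity rests on transcription factors that bind shared enhancers. EBF2 opens brown-selective chromatin, PRDM16 joins coactivator complexes there and represses genes of other lineages, and IRF4 works with the coactivator PGC-1alpha in the response to cold. The effectors lie downstream: CIDEA coats lipid droplets, DIO2 makes active thyroid hormone inside the cell, ELOVL3 lengthens saturated fatty acids in the cold, and KCNK3 (TASK1) is a potassium channel that sets the membrane potential.

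Reads falling in genes numbered between 14409348 and 15897920 in OGTBKO libraries and between 13393962 and 15293657 in WT libraries. Mitochondrial genes took 25.2% to 30.2% of them in OGTBKO libraries and 27.2% to 39.4% in WT libraries. Ogt itself averaged 12.4 ± 1.65 FPKM in OGTBKO and 26.0 ± 4.80 FPKM in WT tissue (SD, n = 4 each), a log2 change of -1.03 with a limma adjusted p of 0.00511. The tissue label was checked against Ucp1, the uncoupling protein that marks brown fat, which had a higher mean level than 99.8% of the genes tested. A list of 8 brown adipocyte markers, some of them among the 10 genes, summed to 2726 to 3116 FPKM in OGTBKO and 2786 to 4207 FPKM in WT libraries. Of the 8, 3 were called lower (Ucp1, Ppargc1a and Prdm16) and 0 higher, where 7.46% of all genes tested were called lower. Prdm16 is one of the 10 genes, and Ucp1 and Ppargc1a are counted again in lists below. The libraries OGTBKO 1 and WT 1 stood apart, since 14 skeletal muscle markers summed to 1635 FPKM in OGTBKO 1 and 585 FPKM in WT 1, against 20.4 to 31.2 FPKM in the other OGTBKO libraries and 22.2 to 61.3 FPKM in the other WT libraries. WT 3 stood apart in another way, with 39.4% mitochondrial reads against 27.2% to 32.2% in the other WT libraries and with reads in 18920 genes against 19844 to 20359. Leaving out OGTBKO 1 and WT 1 together gave log2 changes of -0.39 for Ebf2, -0.02 for Zic1, -0.45 for Lhx8, -0.71 for Irf4, -0.34 for Cidea, -0.81 for Dio2 and 1.48 for Elovl3, with limma adjusted p from 0.199 to 0.959. The other 3 of the 10 genes are given without these libraries where they are described. In bulk tissue, fewer cells of a type and less RNA per cell cannot be told apart.

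Of the 10 genes, 2 passed the test across all genes (limma, Benjamini-Hochberg adjusted p under 0.05), Kcnk3 and Prdm16, both lower in OGTBKO tissue, 0 were higher (1, Elovl3, at an unadjusted p under 0.05) and 8 did not pass. Over all 13171 genes tested 15.6% passed (7.46% lower and 8.11% higher), so 2 of 10 is near the background. An unadjusted limma p under 0.05 was reached by 4 of the 10 and by 32.8% of all genes tested. With FPKM scaled to the library total, the calls over all genes were 987 higher and 250 lower, in place of 1068 higher and 982 lower. Without OGTBKO 1 and WT 1 the same number, 2, passed. The fitted mean on the log2 scale was below WT for 9 of the 10, against 50.2% of all genes tested. For Zic1, Tbx15 and Cidea the sign turned under other settings. By mean FPKM, Zic1 (1.84 in OGTBKO and 1.79 in WT) and Tbx15 (1.44 in OGTBKO and 1.43 in WT) were slightly higher in OGTBKO tissue. The median log2 change of the 10 was -0.38, against -0.00213 over all genes tested. The groups did not overlap for 1 of the 10, Kcnk3, where 22.5% of all genes tested did not overlap.

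**Figure D1:**
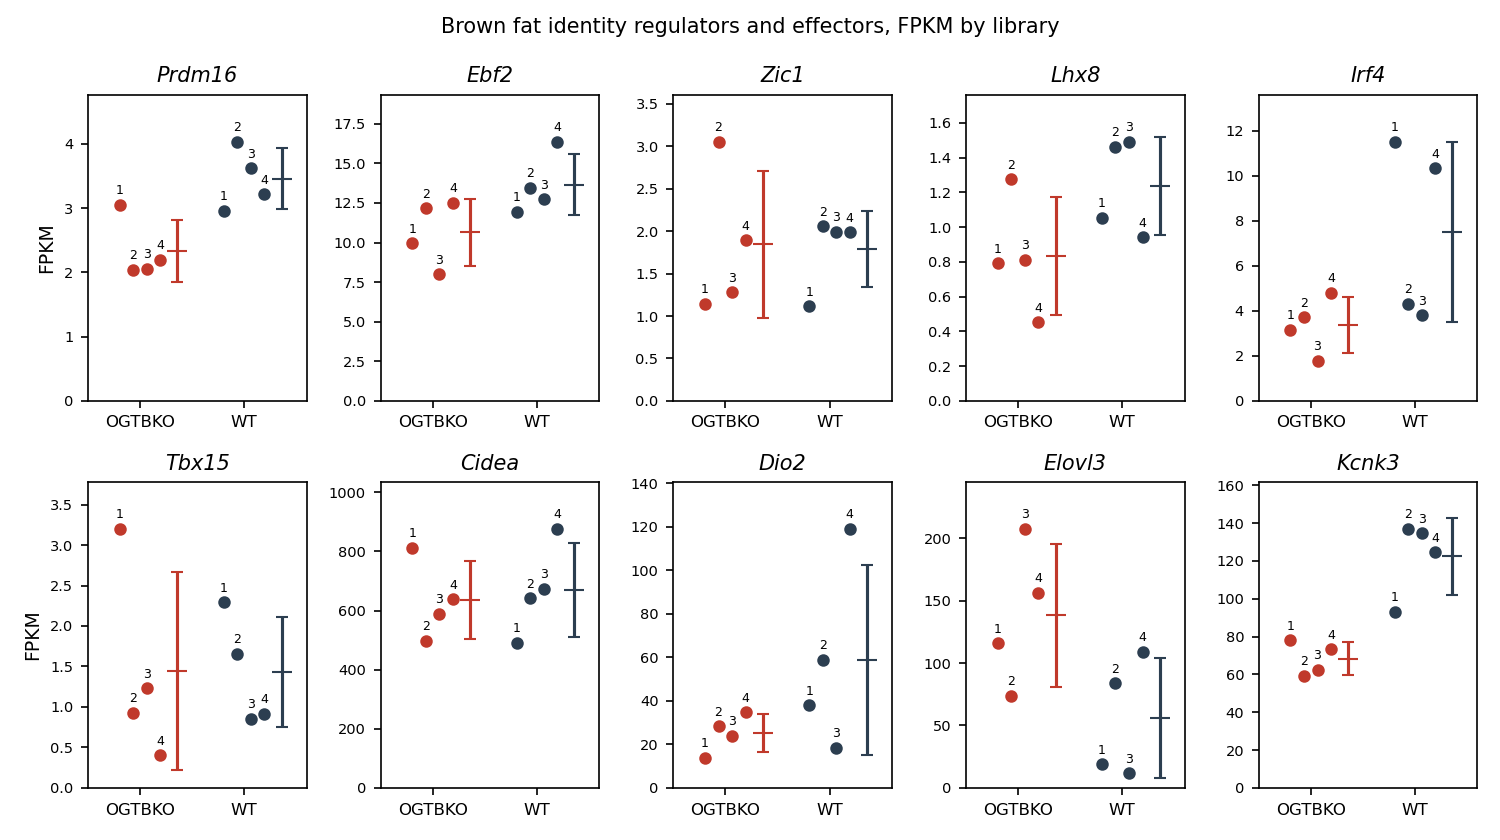
FPKM of the 10 genes in each library, one panel per gene with its own axis starting at 0; points are libraries with their replicate number, OGTBKO left and WT right, and the bar beside them is the mean with its SD (n = 4). Kcnk3 is the panel in which no OGTBKO library reaches a WT library, and in Dio2 and Elovl3 the 4 WT libraries spread most.

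Prdm16, the zinc finger regulator that directs progenitors and adipocytes to the brown fate, was lower in OGTBKO tissue by a margin close to the threshold. It measured 3.05, 2.04, 2.05 and 2.20 FPKM in OGTBKO 1 to 4, against 2.96, 4.03, 3.62 and 3.22 FPKM in WT 1 to 4. OGTBKO 1 lay above WT 1, so the groups overlapped, and the other 3 OGTBKO libraries lay below every WT library. The means were 2.33 ± 0.483 FPKM in OGTBKO and 3.46 ± 0.471 FPKM in WT tissue (SD, n = 4 each). On the log2(FPKM + 0.5) scale, which understates changes of low genes, the change was -0.49 ± 0.14 (SE; 95% interval -0.80 to -0.17; limma adjusted p = 0.0466). The call ended without OGTBKO 2 (adjusted p = 0.108), OGTBKO 3 (0.127), OGTBKO 4 (0.105), WT 2 (0.123), WT 3 (0.0765) or WT 4 (0.0773), with no filter on low values (0.1001) and with FPKM scaled to the library total (0.125). The call also ended with a block for the replicate numbers (0.121), and with that block and the GC trend removed (0.0967). It held without OGTBKO 1 and WT 1, the libraries rich in muscle transcripts, where the log2 change was -0.66 (adjusted p = 0.0187). A level relative to other adipocyte transcripts of the same library does not depend on the scaling between libraries. It was chosen after the values were seen and is given without a test. Per 1000 FPKM of 9 summed adipocyte markers (Adipoq, Plin1, Fabp4, Lipe, Pnpla2, Cidec, Pparg, Lpl and Cfd), Prdm16 stood at 0.594, 0.542, 0.521 and 0.522 in OGTBKO 1 to 4 and at 0.763, 0.971, 1.13 and 0.710 in WT 1 to 4. On that measure the groups did not overlap. The marker sum was highest in OGTBKO 1, at 5140 FPKM, the library whose Prdm16 FPKM lay above WT 1. The share of all genes that separate on this measure was not computed. Relative to Ucp1, which was itself lower in OGTBKO tissue, the groups overlapped and the order of the means turned. Prdm16 stood at 0.233% of the Ucp1 level in OGTBKO and 0.175% in WT tissue.

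The sequence just upstream of Prdm16 (ENSMUSG00000039410, chromosome 4, 154316125 to 154636873, minus strand) is shown because it is the regulator that was called and because its base content contrasts with that of the Dio2 promoter below. RefSeq's promoter table (GRCm38.p6, the build of the deposited coordinates) held 5 of the 10 genes: Prdm16, Zic1, Lhx8, Irf4 and Dio2. The window is chr4:154636874-154637123 on the minus strand, 250 bases ending at the base before the RefSeq start, which is also the end coordinate of the gene in the deposited table. Capitals mark a GC box (GGGCGG) and a CCAAT box (CCAAT), each searched on both strands.
Prdm16 promoter: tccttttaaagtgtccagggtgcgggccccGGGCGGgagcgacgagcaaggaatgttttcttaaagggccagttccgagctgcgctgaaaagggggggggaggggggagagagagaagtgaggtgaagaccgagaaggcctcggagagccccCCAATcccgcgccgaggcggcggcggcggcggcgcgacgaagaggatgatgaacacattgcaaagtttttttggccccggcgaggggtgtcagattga
The GC box pattern occurred in 32.7% and the CCAAT pattern in 33.8% of the 32851 promoter windows scanned. The window is 62.4% G and C and holds 22 CpG dinucleotides, against a median of 6 over all windows.

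Mecom, the closest relative of Prdm16 and able to stand in for part of its function, measured between 0.936 and 1.23 FPKM in OGTBKO and between 0.836 and 1.13 FPKM in WT libraries (log2 change 0.02, limma adjusted p = 0.937). Of 13 other Prdm genes looked up, 8 lay below the level needed for the test. Among the rest, Prdm9, known as a meiotic histone methyltransferase, was called lower (log2 -0.50, limma adjusted p = 0.0229), a call that ended in 7 of the 19 alternatives.

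Ebf2 (ENSMUSG00000022053, chromosome 14, 67233292 to 67430918, plus strand), the chromatin-opening factor of brown preadipocytes and adipocytes, was the most abundant of the 6 regulators. It measured 9.94, 12.2, 8.00 and 12.5 FPKM in OGTBKO 1 to 4 and 12.0, 13.5, 12.7 and 16.4 FPKM in WT 1 to 4. The groups overlapped narrowly, OGTBKO 2 and OGTBKO 4 reaching above WT 1. The means of 10.7 ± 2.11 and 13.6 ± 1.92 FPKM in OGTBKO and WT tissue (SD, n = 4 each) gave a log2 change of -0.35 ± 0.16 (SE; 95% interval -0.71 to 0.00), which did not pass (limma adjusted p = 0.155, and between 0.0901 and 0.421 over the 19 alternatives). Its paralogue Ebf1, also present in adipocytes, was lower, at 9.33 ± 1.08 FPKM in OGTBKO and 16.2 ± 3.45 FPKM in WT tissue (log2 -0.75, limma adjusted p = 0.0144). The Ebf1 call ended in 4 of the alternatives, removal of the GC trend among them (adjusted p = 0.0669).

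Irf4 (ENSMUSG00000021356, chromosome 13, 30749226 to 30766976, plus strand), which in adipocytes is switched on by fasting and cold, measured 3.16, 3.72, 1.78 and 4.81 FPKM in OGTBKO 1 to 4, against 11.5, 4.32, 3.80 and 10.3 FPKM in WT 1 to 4. WT 1 and WT 4 were more than 2 times as high as any OGTBKO library, while WT 2 and WT 3 lay among the OGTBKO values. The log2 change was -0.96 ± 0.38 (SE; 95% interval -1.82 to -0.10; unadjusted p = 0.0320, limma adjusted p = 0.116), so Irf4 did not pass. Without WT 3, the lowest WT library, the log2 change was -1.21 (adjusted p = 0.0602). It was -0.72 (adjusted p = 0.217) without WT 1, -0.77 (0.240) without WT 4 and -0.73 (0.270) without OGTBKO 3. Over the 19 alternatives the limma adjusted p ran from 0.0602 to 0.280. Immune cells also express Irf4. Of 12 B and plasma cell markers, 5 reached the level needed for the test and 2 of these were called higher. The 12 summed to 134 to 280 FPKM in OGTBKO and 34.0 to 57.7 FPKM in WT libraries. Ighm averaged 142 ± 78.3 FPKM in OGTBKO and 11.3 ± 3.40 FPKM in WT tissue. On average it made up most of the sum in OGTBKO but not in WT tissue. The B cell genes Ms4a1 and Pax5 were at or near 0 in every library, neither above 0.138 FPKM. Of 13 macrophage and dendritic cell markers, 12 were tested, 1 was called higher (the integrin Itgax) and 0 lower, with sums of 265 to 592 FPKM in OGTBKO and 193 to 382 FPKM in WT libraries. The B and plasma cell sums did not overlap between the groups and the macrophage sums did. Their part in the Irf4 values was not tested. Irf8, the nearest relative of Irf4 and typical of myeloid cells, measured 0.886 to 1.30 FPKM in OGTBKO and 0.746 to 0.884 FPKM in WT libraries without passing (limma adjusted p = 0.265), whereas Irf9, a subunit of the interferon-activated complex ISGF3, was lower in all 19 alternatives (log2 -0.97, limma adjusted p = 0.00875).

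Zic1 (ENSMUSG00000032368, chromosome 9, 91358058 to 91365810, minus strand), a marker of the somitic origin of classical brown fat, measured 1.14, 3.05, 1.28 and 1.89 FPKM in OGTBKO 1 to 4 and 1.11, 2.06, 1.99 and 1.99 FPKM in WT 1 to 4. The groups overlapped throughout, and the lowest value of each group was in the library numbered 1. The log2 change was -0.01, with a 95% interval of -0.59 to 0.57 (limma adjusted p = 0.984). Zic4, which overlaps it on the opposite strand, was below the level needed for the test, at 0.0766 to 0.246 FPKM in OGTBKO and 0.0829 to 0.155 FPKM in WT libraries.

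Lhx8 (ENSMUSG00000096225, chromosome 3, 154306294 to 154330659, minus strand), a LIM homeobox gene used as a marker of classical brown fat, was the least abundant of the 10. It measured 0.794, 1.28, 0.813 and 0.454 FPKM in OGTBKO 1 to 4 and 1.05, 1.46, 1.49 and 0.942 FPKM in WT 1 to 4, values that rest on 16 to 52 reads in OGTBKO and 37 to 53 reads in WT libraries. OGTBKO 2 lay within the WT range and the other 3 OGTBKO libraries below it. The difference did not pass (log2 -0.40, 95% interval -0.87 to 0.07, limma adjusted p = 0.214), an interval that still holds sizeable changes. Lhx6, its closest relative, also showed none that passed (log2 0.14, limma adjusted p = 0.590).

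Tbx15 (ENSMUSG00000027868, chromosome 3, 99240381 to 99354259, plus strand), a T-box factor of brown fat and of glycolytic muscle fibres, measured 3.20, 0.928, 1.23 and 0.403 FPKM in OGTBKO 1 to 4 and 2.29, 1.66, 0.857 and 0.914 FPKM in WT 1 to 4. Its highest value in each group came from the library numbered 1, the same libraries in which the muscle markers were highest. The summed muscle markers were 1635, 20.4, 31.2 and 24.3 FPKM in OGTBKO 1 to 4 and 585, 22.7, 22.2 and 61.3 FPKM in WT 1 to 4. Of the 14 markers, 11 were tested and 0 passed in limma (0 at an unadjusted p under 0.05), with Tnnc2, Myf6 and Myod1 below the level needed. The part of muscle in the Tbx15 values was not tested. Over all 8 libraries the log2 change of Tbx15 was -0.12 (95% interval -1.04 to 0.80, limma adjusted p = 0.869), and without OGTBKO 1 and WT 1 it was -0.30 (limma adjusted p = 0.519). Tbx18, the nearest T-box relative, measured 0.822 to 1.16 FPKM in OGTBKO and 0.881 to 1.08 FPKM in WT libraries, with no such excess in the libraries numbered 1.

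**Figure D2:**
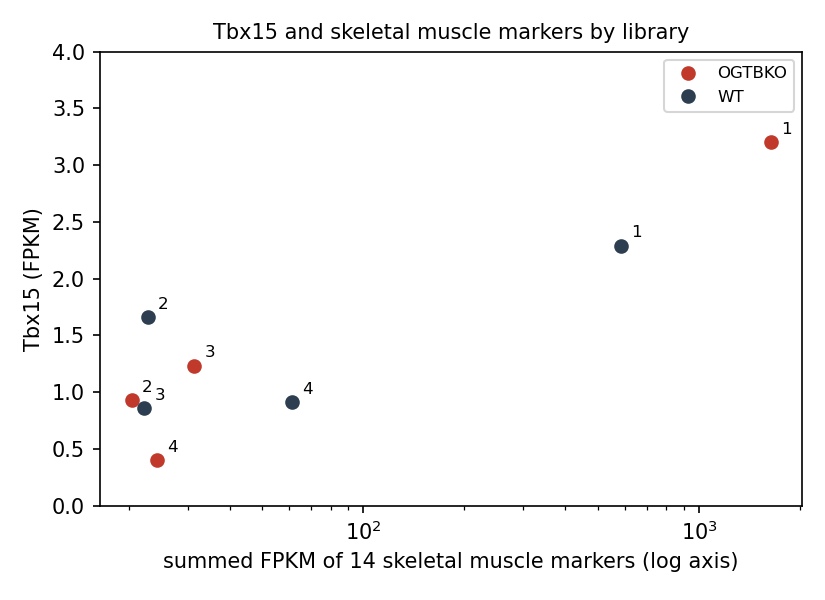
Tbx15 (FPKM, vertical axis) against the summed FPKM of 14 skeletal muscle markers (horizontal log axis) in each library, labelled by replicate number, OGTBKO in red and WT in dark blue. OGTBKO 1 (3.20 FPKM) and WT 1 (2.29 FPKM) lie apart at the upper right, and the other 6 libraries lie at or below 1.66 FPKM.

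Cidea (ENSMUSG00000024526, chromosome 18, 67343564 to 67367794, plus strand), the lipid droplet protein and the most abundant of the 10 in both groups, did not pass. It measured 812, 498, 589 and 639 FPKM in OGTBKO 1 to 4 and 491, 641, 673 and 877 FPKM in WT 1 to 4. The groups overlapped over nearly their whole range. The means of 634 ± 132 FPKM in OGTBKO and 671 ± 159 FPKM in WT tissue (SD, n = 4 each) gave a log2 change of -0.07, and its 95% interval of -0.54 to 0.39 leaves room for a change of moderate size (limma adjusted p = 0.846). Relative to Ucp1, which averaged 1006 ± 79.3 FPKM in OGTBKO and 2051 ± 485 FPKM in WT tissue (limma adjusted p = 0.0113, but 0.0763 with no filter on low values and 0.0516 with FPKM scaled to the library total), Cidea stood at 79.2%, 55.1%, 53.7% and 64.0% in OGTBKO 1 to 4 and at 27.7%, 25.4%, 44.5% and 36.7% in WT 1 to 4. The groups did not overlap in that ratio. Ucp1 itself did not overlap either, at 904 to 1096 FPKM in OGTBKO and 1512 to 2524 FPKM in WT libraries. A ratio to Ucp1 carries that difference and is not separate evidence of a change in Cidea. Its paralogue Cidec, which fuses lipid droplets, measured 315 to 543 FPKM in OGTBKO and 253 to 500 FPKM in WT libraries (log2 0.11, limma adjusted p = 0.804). Cideb, known from liver, was near 1 FPKM or below in every library and did not pass (limma adjusted p = 0.121).

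Dio2, the deiodinase that converts thyroxine to triiodothyronine, varied widely among WT libraries. It measured 13.9, 28.2, 24.0 and 34.9 FPKM in OGTBKO 1 to 4, against 37.9, 59.0, 18.5 and 119 FPKM in WT 1 to 4. WT 1, WT 2 and WT 4 lay above every OGTBKO library and WT 3 among the low ones. The means were 25.3 ± 8.81 FPKM in OGTBKO and 58.6 ± 43.6 FPKM in WT tissue (SD, n = 4 each), and the log2 change of -0.96 ± 0.51 (SE; 95% interval -2.11 to 0.18) did not pass (limma adjusted p = 0.222). It passed in 1 of the 19 alternatives, with array weights (adjusted p = 0.0488). Without WT 4 the log2 change was -0.52 (adjusted p = 0.443), and without WT 3, the library richest in mitochondrial reads, it was -1.41 (adjusted p = 0.0538). Dio1 and Dio3, the other deiodinases, were at or near 0, none above 0.121 FPKM in any library. Among the thyroid hormone receptor genes, Thrb was lower, at 6.29 ± 1.01 FPKM in OGTBKO and 11.01 ± 3.05 FPKM in WT tissue (log2 -0.74, limma adjusted p = 0.0320), a call that ended in 9 of the alternatives.

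The Dio2 promoter is shown because the gene is known as a target of cAMP signalling from adrenergic receptors and because of the spread of its values. The window is chr12:90739039-90739288 (GRCm38.p6, minus strand), 250 bases ending just before the RefSeq start, which lies 600 bases upstream of the gene end given for Dio2 (ENSMUSG00000007682, chromosome 12, 90724552 to 90738438) in the deposited table. Capitals mark a full cAMP response element (TGACGTCA) and a TATA box (TATAAA), searched on both strands.
Dio2 promoter: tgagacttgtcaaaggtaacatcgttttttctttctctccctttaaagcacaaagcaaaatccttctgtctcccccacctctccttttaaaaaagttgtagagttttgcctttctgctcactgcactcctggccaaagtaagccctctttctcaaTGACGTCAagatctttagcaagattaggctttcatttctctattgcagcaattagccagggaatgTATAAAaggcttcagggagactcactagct
The full element lies 95 to 88 bases and the TATA box 30 to 25 bases upstream of the start. The first pattern occurred in 1.55% of all promoter windows and the second in 12.4%. With 41.6% G and C and 2 CpG dinucleotides, the window is poor in both, unlike that of Prdm16 above. The EBF palindrome and the core of the interferon-stimulated response element, searched by their usual letters on both strands, are not in the windows of any of the 5 genes found, and occurred in 0.779% and 2.98% of all windows. A match is a description of letters and not evidence of binding.

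Elovl3 (ENSMUSG00000038754, chromosome 19, 46131897 to 46135307, plus strand), a fatty acid elongase that is strongly induced in brown fat by cold, was the 1 gene of the 10 with a higher fitted mean in OGTBKO tissue. It measured 116, 73.7, 208 and 156 FPKM in OGTBKO 1 to 4, against 19.1, 84.0, 11.6 and 109 FPKM in WT 1 to 4. WT 1 and WT 3 lay far below every OGTBKO library, while WT 2 and WT 4 lay above OGTBKO 2. The means were 138 ± 57.2 FPKM in OGTBKO and 55.9 ± 48.1 FPKM in WT tissue (SD, n = 4 each). The log2 change of 1.75 ± 0.68 (SE; 95% interval 0.21 to 3.29; unadjusted p = 0.0300) was the largest of the 10 and did not pass (limma adjusted p = 0.111, and between 0.0612 and 0.251 over the 19 alternatives). Without WT 3, the lowest WT library for Elovl3 as for Dio2, it was 1.195 (adjusted p = 0.199), and the part of that library's mitochondrial share was not tested. Relative to Ucp1 the groups did not overlap, with Elovl3 at 11.3%, 8.15%, 19.0% and 15.7% of the Ucp1 level in OGTBKO 1 to 4 and at 1.07%, 3.33%, 0.769% and 4.56% in WT 1 to 4. That ratio also carries the lower Ucp1 level of OGTBKO tissue. Among the other elongases, Elovl6, which lengthens shorter saturated fatty acids, measured 145 to 229 FPKM in OGTBKO and 133 to 256 FPKM in WT libraries (log2 -0.02, limma adjusted p = 0.974), and Elovl5, for polyunsaturated fatty acids, 28.9 to 38.6 FPKM in OGTBKO and 29.9 to 40.0 FPKM in WT libraries. Elovl1 did not pass (log2 0.65, limma adjusted p = 0.0506), nor did Elovl4 (log2 0.59, limma adjusted p = 0.106), and Elovl2 and Elovl7 were below the level needed for the test.

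Kcnk3, the potassium channel, had the smallest p of the 10 and was lower in OGTBKO tissue. It measured 78.2, 59.3, 62.6 and 73.3 FPKM in OGTBKO 1 to 4, against 93.2, 137, 135 and 125 FPKM in WT 1 to 4. Every OGTBKO library lay below every WT library. The means were 68.3 ± 8.86 FPKM in OGTBKO and 122 ± 20.2 FPKM in WT tissue (SD, n = 4 each), which put the OGTBKO level at 55.8% of WT. The log2 change was -0.83 ± 0.15 (SE; 95% interval -1.17 to -0.49; limma adjusted p = 0.0110). Kcnk3 (ENSMUSG00000049265, chromosome 5, 30588170 to 30625271, plus strand, mm10) remained called in all 19 alternatives tried, with log2 changes from -1.02 to -0.71 and adjusted p from 0.00268 to 0.0481. The change was -1.02 (adjusted p = 0.00846) without OGTBKO 1 and WT 1.

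Among genes of high GC content more were called higher than lower in OGTBKO tissue, and Kcnk3 was called lower. Its longest transcript is 59.1% G and C, higher than in 94.1% of the genes tested. Among the 3290 genes with the highest GC content 456 were higher and 65 lower in OGTBKO tissue, and Kcnk3 was among the 65. Among the 3291 genes with the lowest GC content, Dio2 among them, 84 were higher and 581 lower. After a trend on GC content and length was taken out of each library, the log2 change of Kcnk3 was -0.99 (limma adjusted p = 0.00782). The same step gave -0.20 for Ebf2 (-0.35 before) and -0.78 for Dio2 (-0.96 before). It gave -0.51 for Lhx8 (-0.40 before) and -0.33 for Cidea (-0.07 before). Ebf2, Dio2, Lhx8 and Cidea did not pass in either fit. The part of GC content in these values was not tested.

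Per 1000 FPKM of the 9 summed adipocyte markers, Kcnk3 stood at 15.2, 15.8, 15.9 and 17.4 in OGTBKO 1 to 4 and at 24.0, 33.0, 42.2 and 27.5 in WT 1 to 4. The 4 OGTBKO values lay close together and below the lowest WT value. The groups already did not overlap in FPKM, so this ratio is not separate evidence of a change in Kcnk3. The share of all genes that separate on it was not computed. The markers themselves summed to between 3764 and 5140 FPKM in OGTBKO and between 3190 and 4528 FPKM in WT libraries, and 1 of the 9, the lipase gene Lipe, was called higher. Relative to Ucp1, by contrast, the groups overlapped, with Kcnk3 at 5.71% to 7.62% of the Ucp1 level in OGTBKO and at 5.21% to 8.90% in WT libraries. Ucp1 was itself lower in OGTBKO tissue. Of 13 other channels of the family looked up, the nearest relative Kcnk9 was listed at 0 in all 8 libraries. Kcnk2, a mechanosensitive member, was called higher, at 1.39 ± 0.318 FPKM in OGTBKO and 0.709 ± 0.220 FPKM in WT tissue (limma adjusted p = 0.0495, close to the threshold).

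**Figure D3:**
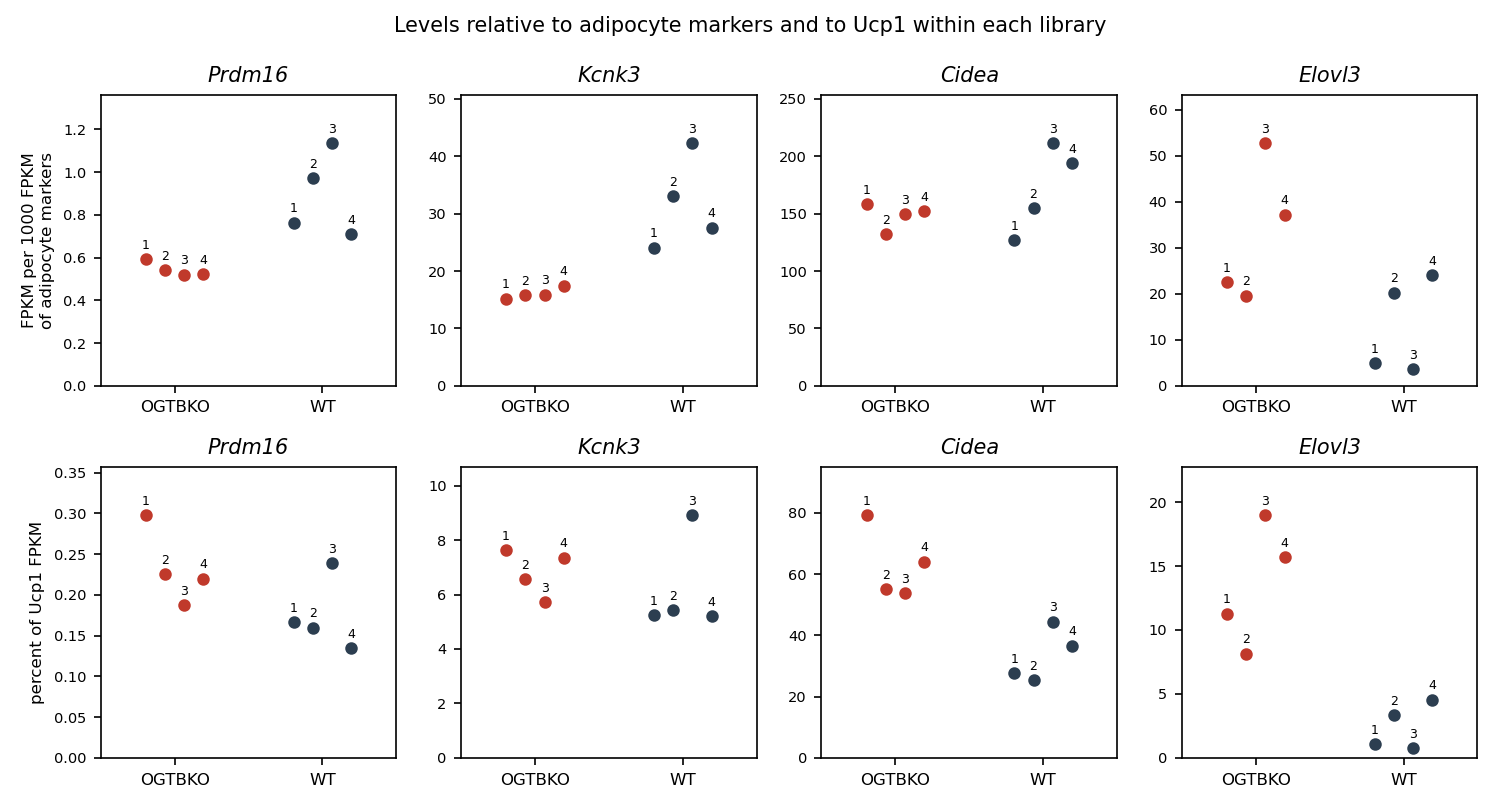
Level of 4 genes within each library, relative to 9 summed adipocyte markers (top row, FPKM per 1000 FPKM) and to Ucp1 (bottom row, percent); points are libraries with their replicate number, OGTBKO left and WT right. Prdm16 and Kcnk3 separate the groups in the top row and overlap in the bottom row, while Cidea and Elovl3 overlap in the top row and separate in the bottom row. Ucp1 itself was lower in every OGTBKO library than in every WT library, and the bottom row carries that difference too. The share of all genes that separate on either measure was not computed.

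**Figure D4:**
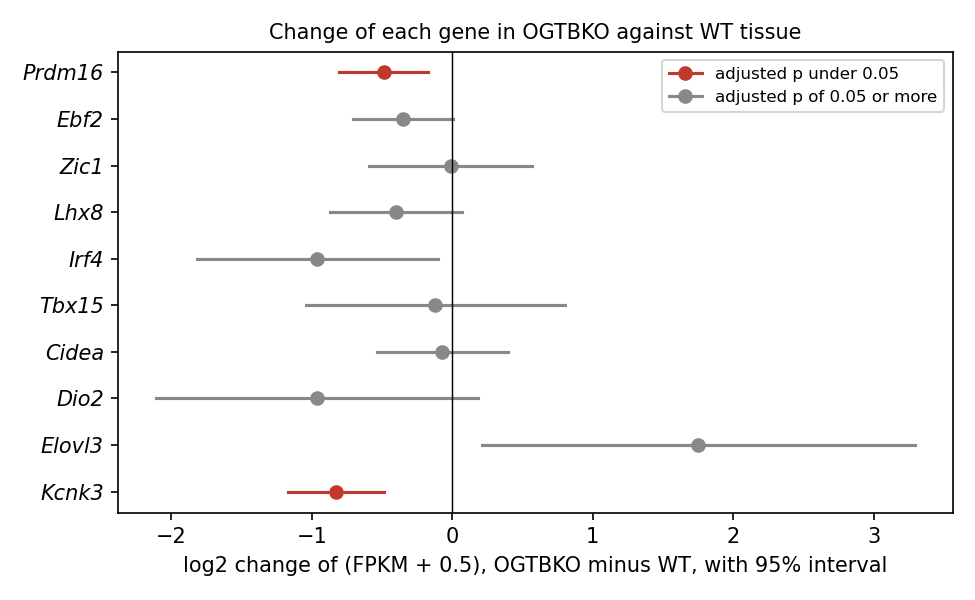
Log2 change of (FPKM + 0.5) for each of the 10 genes, OGTBKO minus WT, with its 95% interval from limma (n = 4 each); red marks an adjusted p under 0.05. The intervals of Kcnk3, Prdm16 and Irf4 lie below 0 and that of Elovl3 lies above 0, though Irf4 and Elovl3 did not pass after adjustment. Those of Dio2 and Elovl3 are the widest.

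Elovl3, Dio2, Irf4 and Tbx15, which did not pass, were among the more variable genes of their level. The SD within groups on the log2(FPKM + 0.5) scale was 1.19 for Elovl3, 0.88 for Dio2, 0.66 for Irf4 and 0.70 for Tbx15, against a median of 0.22 over all genes tested. When the genes tested were divided into 20 bins by mean level, Elovl3 was more variable than 99.7% of the genes in its bin, Dio2 and Irf4 than 98.2%, and Tbx15 than 92.7%. Prdm16 (47.6%), Kcnk3 (53.1%) and Ebf2 (66.3%) lay near the middle of their bins. For Elovl3 and Dio2 most of the spread lay among WT libraries. The highest value was 2.82 times the lowest in OGTBKO and 9.37 times in WT libraries for Elovl3, and 2.51 times in OGTBKO and 6.45 times in WT libraries for Dio2. Both genes ordered the 4 WT libraries in the same way, WT 4 highest, then WT 2, WT 1 and WT 3, while their orders among OGTBKO libraries differed. For Tbx15 the spread was larger among OGTBKO libraries, at 7.95 times against 2.67 times in WT.

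**Figure D5:**
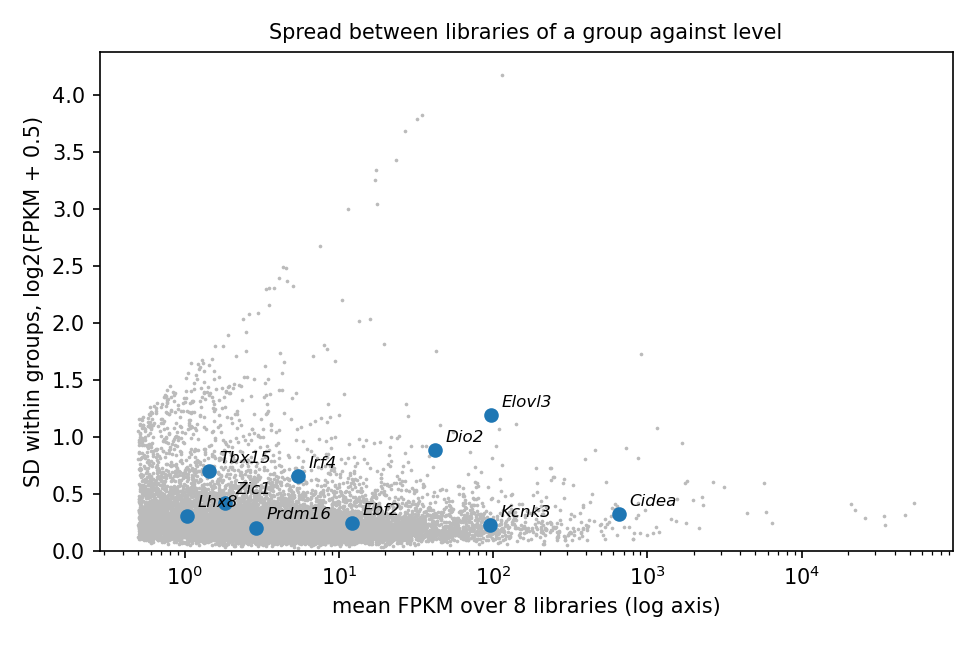
SD within groups of log2(FPKM + 0.5) (vertical axis) against mean FPKM over the 8 libraries (horizontal log axis), with every gene tested in grey and the 10 genes in blue. Elovl3 (1.19) and Dio2 (0.88) lie above most genes of their level, and Prdm16, Ebf2 and Kcnk3 lie within the bulk.

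By level, which FPKM makes comparable between genes through their length, the order of the means in OGTBKO tissue was Cidea, Elovl3, Kcnk3, Dio2, Ebf2, Irf4, Prdm16, Zic1, Tbx15 and Lhx8. In WT tissue it was Cidea, Kcnk3, Dio2, Elovl3, Ebf2, Irf4, Prdm16, Zic1, Tbx15 and Lhx8. Elovl3 was the gene that changed place. Cidea stood clear of its neighbour in every library of both groups. Ebf2 was above Irf4 in every library, but in WT 1 they lay close, at 12.0 FPKM for Ebf2 and 11.5 FPKM for Irf4. In WT libraries the values of Kcnk3, Dio2 and Elovl3 overlapped, as did those of Zic1, Tbx15 and Lhx8 in both groups. In OGTBKO libraries Elovl3 (73.7 to 208 FPKM) and Kcnk3 (59.3 to 78.2 FPKM) overlapped too, though Elovl3 was the higher within each library. Single libraries also differed from the order of the means, as in OGTBKO 3 with Irf4 at 1.78 FPKM and Prdm16 at 2.05 FPKM.

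Other genes of the brown fat programme, taken from lists fixed with earlier results of these data known, are given for context. Of 37 further regulators tested, 2 were higher, 4 lower and 31 did not pass, with a median log2 change of -0.08. The 4 with the smallest p were the coactivator Ppargc1a, at 7.17 ± 0.878 FPKM in OGTBKO and 13.6 ± 2.19 FPKM in WT tissue (limma adjusted p = 0.00628), Nfia, a partner of EBF2 in brown fat (log2 -0.62, adjusted p = 0.00940), Ybx1, a nucleic acid binding protein (log2 0.89, adjusted p = 0.0229), and Thrb. Of these, Ppargc1a remained called in all 19 alternatives. The 6 calls in this list went to 3 without OGTBKO 2 or WT 4 and to 2 without OGTBKO 3, OGTBKO 4 or WT 2. Of 29 further effector and marker genes, 3 were higher, 4 lower and 22 did not pass, with a median of -0.02. The smallest p belonged to Bmp8b, a secreted growth factor (log2 3.14), the cytochrome oxidase subunit Cox7a1 (log2 1.14), Ppargc1a and the droplet protein Plin5 (log2 -0.71, limma adjusted p = 0.0100), of which Plin5 lost its call in 1 alternative.

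Of 22 tested genes induced by cAMP or cold, 6 were lower, 1 higher and 15 did not pass, with a median of -0.15. They included Ucp1 and Ppargc1a, the kinase Pdk4, which restrains pyruvate dehydrogenase (log2 -0.82, limma adjusted p = 0.0119), and the nuclear receptor Nr4a3 (log2 -1.40, limma adjusted p = 0.0168). The 7 calls in this list went to 4 without OGTBKO 2, WT 1 or WT 4, to 3 without OGTBKO 3, and to 4 without OGTBKO 1 and WT 1 together. Of 13 tested markers of beige and white fat, 3 were higher and 1 lower. Leptin (Lep, log2 2.26), gamma-synuclein (Sncg, log2 1.40) and the serine synthesis enzyme Psat1 (log2 0.74) were higher, and the amino acid transporter Slc36a2 was lower (log2 -0.52, limma adjusted p = 0.0237). The 4 calls went to 1 without OGTBKO 2, WT 2 or WT 4 and to 0 without OGTBKO 3. Of 29 tested paralogues of the 10 genes, 2 were higher and 3 lower, the 4 with the smallest p being Irf9, Ebf1, Prdm9 and Tbx2 (log2 0.68, limma adjusted p = 0.0236). These 5 calls went to 3 without OGTBKO 2 or OGTBKO 4, to 2 without WT 2 and to 1 without OGTBKO 3. Each share is to be read against the 15.6% called over all genes.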

How the data were processed

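RNA-seq of brown adipose tissue gave one deposited table of FPKM per gene with a column per library. Tools listed in the submitters' processing notes, with no roles, are Subread, featureCounts 1.5.0-p3 and HISAT2 2.0.5, and the build is mm10, and a strand setting is not given in the sources used here. The deposited FPKM were divided by the authors' gene lengths and by a denominator per library that was between 0.790 and 1.13 times the reads in genes. Multiplied back, 100% of values were whole reads within 0.001, and 1 read in 1 kilobase was worth 0.0556 to 0.0945 FPKM.

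limma 3.58.1 in R 4.3.3 was fitted with a mean-variance trend to log2(FPKM + 0.5) of the genes with a mean of at least 0.5 FPKM, OGTBKO against WT, with Benjamini-Hochberg adjustment over all of them and a threshold of 0.05. The same fit was tested on simulated data. The members and the gene lists were chosen with earlier results of these data known. Named genes are the members, Ogt, Ucp1, Ppargc1a, the closest paralogues, up to 4 genes of smallest p per companion list, and neighbours by coordinates. Genes outside that rule (Kcnk2, Itgax, Ighm, Lipe, the marker genes) were named after their values were seen. GC content is that of the longest GENCODE M21 transcript. Negative binomial tests of counts were not run, since the deposited unit is FPKM, and voom was fitted to the recovered reads as an alternative. Alternatives covered pseudocounts, filters, scaling, weights, GC content, a replicate block and left-out libraries.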

Additional observations from a re-analysis of the deposited data

Results flagged for a closer look

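In 2 of 22 groups of 4 libraries the most extreme library stood off from the rest by more than Dixon's 95% critical value. Chance flags about 1 in 20 groups. Prdm16 measured 3.05 FPKM in OGTBKO 1 against 2.20 FPKM in the next highest OGTBKO library, a gap of 0.844 of the group's range. Zic1 measured 1.11 FPKM in WT 1 against 1.99 FPKM in the next lowest WT library, a gap of 0.922 of the range. Both are libraries numbered 1, in which skeletal muscle markers summed to 1635 FPKM (OGTBKO 1) and 585 FPKM (WT 1), and the part of muscle in these values was not tested.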

How the results depend on the processing

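Over 19 alternatives Kcnk3 kept its call and Prdm16 lost it in 10. The alternatives with voom on recovered reads and without both libraries numbered 1 were chosen after seeing the data. Planned negative binomial tests with 2 tools were not run, since the table holds FPKM. The 2050 genes called (1068 higher, 982 lower) became 1229 with no filter, 1237 with the library total as denominator (987 higher, 250 lower; it moves the median log2 change of all genes to 0.09), 3516 with array weights, and 692 to 2122 when 1 library was left out (1175 without OGTBKO 2, 692 without OGTBKO 3, 945 without OGTBKO 4, 784 without WT 2 and 1195 without WT 4). voom called 2322. With the replicate block 888 were called, and 518 with the block and the GC trend removed. The call of Prdm16 ended with the block (adjusted p = 0.121) and with the block and GC trend removed (0.0967), and in the second fit so did those of Ogt (log2 -0.81, 0.0515) and Ucp1 (0.0529). Without the block, 1391 were called with the GC trend removed. Same-numbered libraries correlated at 0.220, 0.169, 0.0143 and -0.00696, and libraries of different numbers at 0.125 or less. The labels state no pairing, so whether the numbers pair the samples was not settled. Of the members, 1 was called with no filter, with the library total, with the replicate block and with the block and GC trend removed, 3 with array weights, and 1 to 2 with 1 library left out. With the library total as denominator the log2 change was 0.0789 for Zic1 and 0.0434 for Cidea, turned in sign. Zic1 was also turned at 0.11 with the GC trend removed, with or without the block. With 1 library left out the ranges were -0.23 to 0.14 for Zic1, -0.212 to 0.0664 for Cidea and -0.497 to 0.18 for Tbx15. The causes were not tested. Lhx8 and Tbx15 rest on few reads.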

Other observations

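Genes that overlap or adjoin the 10 genes were also read, since reads of overlapping genes cannot be told apart without strand. Gm10860 shares 424 exon bases with Ebf2, B230104I21Rik 109 with Prdm16, Gm26512 100 with Dio2 and Zic4 60 with Zic1. Gm10860, B230104I21Rik, Gm26512 and Zic4 were below the level needed for the test. Gm9899, on the strand opposite Kcnk3 and sharing 229 exon bases with it, was lower, at 4.75 ± 0.842 FPKM in OGTBKO and 8.13 ± 1.74 FPKM in WT tissue (SD, n = 4 each; log2 -0.71, limma adjusted p = 0.0300), a call that ended in 8 of 19 alternatives. Slc35f6, the nearest protein-coding gene to Kcnk3, was higher, at 4.84 ± 0.239 FPKM in OGTBKO and 3.57 ± 0.0779 FPKM in WT tissue (log2 0.39, limma adjusted p = 0.0170). B430212C06Rik overlaps Cidea on the opposite strand with 0 shared exon bases and was higher, at 4.72 ± 0.511 FPKM in OGTBKO and 2.82 ± 0.371 FPKM in WT tissue (log2 0.66, limma adjusted p = 0.00981). Pitx3, which ends 378 bases from Elovl3, averaged 1.63 ± 0.820 FPKM in OGTBKO and 0.677 ± 0.200 FPKM in WT tissue and did not pass (limma adjusted p = 0.0838). Dusp22, the nearest protein-coding gene to Irf4, did not pass either (log2 -0.39, limma adjusted p = 0.0651).

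Other cell types were read through marker lists. White adipocyte markers summed to 156 to 203 FPKM in OGTBKO and 52.0 to 126 FPKM in WT libraries, with 2 of 5 tested called higher. Adipose progenitor markers summed to 208 to 535 FPKM in OGTBKO and 307 to 419 FPKM in WT libraries, with 1 of 11 called lower (Ly6a). Endothelial markers summed to 165 to 179 FPKM in OGTBKO and 138 to 178 FPKM in WT libraries, with 1 of 8 called higher. Pericyte and smooth muscle markers summed to 146 to 165 FPKM in OGTBKO and 120 to 204 FPKM in WT libraries, with 1 of 9 called higher. T and NK cell markers summed to at most 3.30 FPKM in OGTBKO and 3.73 FPKM in WT libraries. Schwann cell and nerve markers summed to 38.4 to 50.6 FPKM in OGTBKO and 45.4 to 64.8 FPKM in WT libraries, and 0 of 5 tested passed in limma (1 at an unadjusted p under 0.05). Over all genes tested 15.6% were called. The part of these cell types in the values of the 10 genes was not tested.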
